A study of Mus musculus with 12 samples.

Results

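The Hox genes of the mouse were followed in the crypt epithelium of the large intestine, as rows whose symbol is Hoxa, Hoxb, Hoxc or Hoxd followed by a number alone. Of 28793 genes in the table, 35 met that rule: 11 Hoxa, 10 Hoxb, 6 Hoxc and 8 Hoxd genes. The 12 RNA libraries came from C57BL/6 mice aged 3 months that differed in Tert, the gene of the telomerase reverse transcriptase, which rebuilds chromosome ends. GFP-sorted crypt cells, named CBC (crypt base columnar, the stem cells of the crypt floor) in the series design, gave 3 libraries labelled mTert_HET (heterozygous) and 3 labelled mTert_NULL_Generation3 (null G3). Unsorted crypt epithelium gave 2 libraries each labelled mTert_HET, mTert_NULL_Generation4 (null G4) and mTert_reactivated_Generation4 (reactivated; a generation 4 group whose name says that mTert was reactivated). The generation of the null mice therefore differs between the sorted (3) and unsorted (4) sets, and the heterozygous libraries, described as G0, served as controls in both. The libraries labelled reactivated are described as G4tam, where those of null G4 are described as G4. No source used here spells out the ending tam, and what it marks cannot be told apart from reactivation. The driver of GFP, the means of reactivation and any pooling of animals are not given either. Replicates are called biological in the labels without naming animals, so each p-value measures the spread between these libraries only.

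Hox genes encode homeodomain transcription factors that sit in clusters in the order in which they are used along the body. Genes at the low-numbered end of a cluster are read towards the head and those of paralogue groups 9 to 13 towards the tail, so the set of Hox genes a cell expresses is a record of its position. In the gut the genes of group 13 mark the distal colon and rectum, and the pattern persists in adult epithelium. Genes with the same number in different clusters (paralogues) descend from 1 ancestral gene.

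Values are RPKM (reads scaled to gene length and to library size), so that levels of different genes can be compared. In GRCm38 the listed genes lay on chromosome 6 (Hoxa), chromosome 11 from 96194316 to 96368256 (Hoxb), chromosome 15 from 102966796 to 103036852 (Hoxc) and chromosome 2 from 74668310 to 74765142 (Hoxd). All 35 are annotated as protein-coding, and 5 of the Hoxc genes were listed for the unsorted libraries only. Of the 35 genes, 19 reached RPKM 1 in at least 2 libraries: 8 Hoxa, 8 Hoxb, 3 Hoxd and 0 Hoxc genes. The other 16 did not exceed 2.09 RPKM, the value of Hoxa2 in heterozygous sorted replicate 3, and 10 of them stayed under 0.1 RPKM in every library. No Hoxc gene exceeded 0.0159 RPKM, so the crypt epithelium expressed 3 of the 4 clusters at a measurable level. Hoxc11, Hoxc12, Hoxc13 and Hoxd4 were not analysed here.

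Promoter windows (the 250 bases before a RefSeq start, GRCm38.p6) were found for 21 of the 35 genes, as 23 windows. Their median number of CpG pairs was 13 against 6 over all 32851 windows of that length, and their median GC content 59.2% against 52.4%. The letters TTTATG, the core bound by caudal (Cdx) factors that act upstream of Hox genes in the hindgut, stood on either strand in 4 of the 23 (those of Hoxa7, Hoxb8, Hoxd3 and Hoxd11) and in 10.76% of all windows. A second caudal form, TTTATTG, stood in 1 (Hoxb8) and in 4.204% of all, and the TATA box letters TATAAA in 3 (Hoxa10, Hoxb8 and Hoxd13) and in 12.37%. A match describes the letters and is not a shown binding site. Windows are printed for Hoxa13 (chr6:52260881-52261130, minus strand) and Hoxd13 (chr2:74667975-74668224, plus strand), the group 13 genes with an entry, and for Hoxb8 (chr11:96281655-96281904, plus strand), a gene from the middle of its cluster that read lower in null G4 than in heterozygous crypts where the group 13 genes read higher. Capitals mark the matches to the 3 motifs on either strand.
Hoxa13: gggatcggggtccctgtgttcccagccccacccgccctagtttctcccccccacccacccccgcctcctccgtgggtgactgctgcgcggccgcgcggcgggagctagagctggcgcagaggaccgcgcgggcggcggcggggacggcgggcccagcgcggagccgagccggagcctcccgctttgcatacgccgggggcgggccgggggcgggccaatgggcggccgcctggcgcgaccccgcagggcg
Hoxd13: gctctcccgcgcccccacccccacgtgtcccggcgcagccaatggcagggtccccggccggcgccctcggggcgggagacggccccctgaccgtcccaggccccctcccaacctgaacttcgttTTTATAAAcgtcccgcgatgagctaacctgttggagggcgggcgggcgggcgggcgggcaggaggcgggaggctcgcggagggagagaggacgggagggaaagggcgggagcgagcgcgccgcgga
Hoxb8: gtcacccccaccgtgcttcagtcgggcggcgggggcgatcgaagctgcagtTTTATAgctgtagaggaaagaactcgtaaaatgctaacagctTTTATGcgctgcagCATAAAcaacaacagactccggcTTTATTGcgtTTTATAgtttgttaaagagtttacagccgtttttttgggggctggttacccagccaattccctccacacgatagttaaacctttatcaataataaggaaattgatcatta
The Hoxa13 window had 80% GC and 35 CpG pairs with 0 matches. In the Hoxd13 window (74.4% GC, 31 CpG pairs) the 2 matches to TATAAA, 1 on each strand, overlap. The Hoxb8 window had 44.4% GC, 12 CpG pairs and 5 matches: 2 to TTTATG, 1 to TTTATTG and 2 to TATAAA. The clusters also carry microRNA genes, and the hairpin gene Mir196a-1 between Hoxb13 and Hoxb9 was in the table. Its mature product (chr11:96265187-96265208, plus strand) is printed with the seed, bases 2 to 8, in capitals. Hoxb8 messenger RNA is a known target of this family.
miR-196a-5p: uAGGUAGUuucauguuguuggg

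Library facts that bear on the Hox values are as follows. The steps between low RPKM values implied a depth of 75.4 to 103 per unsorted library and of 150 to 247 per sorted library, in units of 1e6 reads. The latter is less certain, because 5 of 6 sorted libraries showed a second step size. Tert checked the labels: it lay at 0.459 and 0.251 RPKM in heterozygous unsorted crypts, 0.00778 and 0.0377 in null G4, and 0.0171 and 0.0311 in the libraries labelled reactivated, which thus lay within the range of null G4. In sorted cells Tert lay at 0.0424, 0.0583 and 0.169 in heterozygous and at 0, 0.0787 and 0.00131 in null G3, where replicate 2 lay within the heterozygous range. The Y-linked gene Ddx3y marked both heterozygous unsorted libraries, replicate 2 of those labelled reactivated and null G3 replicate 2 as male and the others as female, so sex and null G4 against heterozygous cannot be told apart. Epithelial markers (8 of 8 measured) summed to 528 to 3477 RPKM. Markers of gut wall fibroblasts and muscle (13 of 14 measured), which also use Hox genes, summed to 0.0463 to 2.33 RPKM in sorted and 2.98 to 6.90 in unsorted libraries. The highest single markers were Vim (up to 2.52), Pdgfrb (up to 1.32) and Dcn (up to 1.24), all in unsorted libraries. Among the lowest, Foxf1 stayed at or under 0.022 and Des at or under 0.0979.

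The library labelled null G3 replicate 1 stood apart from every other library in its Hox genes. None of them reached RPKM 1 in it, against 9 to 13 Hox genes in 4 of the other 5 sorted libraries and 17 in heterozygous replicate 3. The summed RPKM of the 30 Hox genes listed in all libraries was 0.380 there, against 46.2, 42.3 and 47.7 in heterozygous sorted cells and 30.1 and 40.3 in the other null G3 libraries, that is 0.900% of the median of those 5. Hoxb9, its highest Hox gene, read 0.0710 RPKM against a median of 6.66 in the other 5. Hoxa6 and Hoxa11 were listed at 0. All 12 Hox genes with a median of RPKM 1 or more in the other 5 sorted libraries were below each of these, as were 79.8% of all 8670 such genes, and all 12 were more than 10-fold under the median, as were 14.7% of the 8670.

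The shortfall was about as deep in each of the 3 expressed clusters, and the proportions among them lay within the range of the other sorted libraries. Hoxa genes made up 35.4% of its Hox total (26.3% to 40.8% in the other 5), Hoxb genes 57.8% (53.1% to 69.5%) and Hoxd genes 6.80% (4.2% to 14.1%). Some stem cell and hindgut genes were also low in it. The stem cell receptor gene Lgr5 stood at 2.86% of the median of the other 5 sorted libraries and the hindgut factor Cdx1 at 7.79%, while Cdx2 stood at 27.9%. Olfm4, also on the stem cell list used here, was higher there (10.1 RPKM) than in the other 5 (3.79 to 7.40). The epithelial genes Cdh1 and Epcam stood at 40.9% and 57.4%, and Vil1, a brush border gene, at 399%. Small intestinal genes were high in it: the 13 listed summed to 8055 RPKM against 115 to 176 in the other 5, with Apoa1 at 1558 RPKM and Gata4, a factor of the proximal small intestine, at 7.96. The library is labelled as large intestine, and the levels of its Hox genes and of these genes go against that label. How its tissue, cells or preparation differed was not tested. The main sorted results for Hox genes are given with and without it. Sorted results under other scalings and for other gene lists include it.

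**Figure D1:**
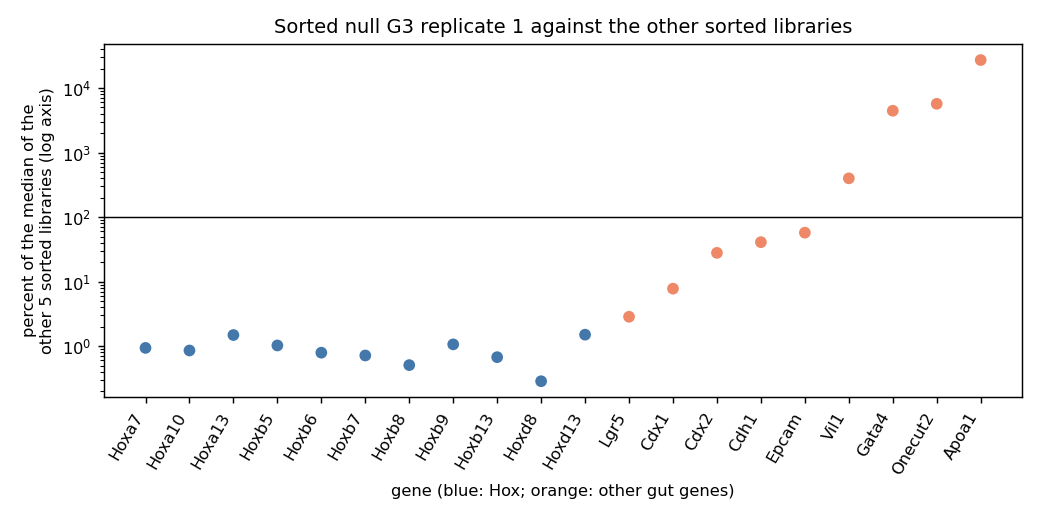
Level of each gene in the library labelled null G3 replicate 1 as a percent of its median in the other 5 sorted libraries (log axis; the line marks 100%; Hox genes with a median of RPKM 1 or more, without Hoxa11, which is listed at 0). The Hox genes lie between 0.286% and 1.51%, below every other gene shown, and the small intestinal genes Gata4, Onecut2 and Apoa1 lie above the line.

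In the 6 unsorted libraries Hoxb13 was the highest Hox gene, and the group 13 genes made up the largest or second largest part of the Hox total. Hoxb13, a gene of the distal colon and prostate, stood at 25.2 and 14.8 RPKM in heterozygous crypts, 48.1 and 60.5 in null G4 crypts, then 41.6 and 53.4 where labelled reactivated. Its paralogue Hoxa13, needed for the hindgut and the genital tract, stood at 5.40 and 4.43, then 7.90 and 9.39, then 7.52 and 9.65 RPKM. Hoxd13, needed for digits and the anal sphincter, stood at 1.02 and 1.22, then 6.28 and 7.81, then 3.18 and 8.44 RPKM. In all 3 genes both heterozygous libraries were below the other 4, while 74.7% of all genes tested were higher without overlap in null G4 and 46.7% in the libraries labelled reactivated. Hoxc13, the remaining paralogue, was not analysed here.

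Against heterozygous crypts, null G4 crypts held more RNA of the end of the Hoxb and Hoxd clusters. Of 17 Hox genes tested in limma on log2(RPKM + 1), 2 rose and 0 fell at an adjusted p under 0.05, while 5.55% of all 11464 genes tested passed (4.97% higher, 0.576% lower). Hoxd13 rose from a mean of 1.12 ± 0.14 to 7.05 ± 1.08 RPKM (SD, n = 2 each), a log2 difference of 1.92 (SE 0.32, adjusted p = 0.0204, limma). Hoxb13 rose from 20.0 ± 7.34 to 54.3 ± 8.77 RPKM, a log2 difference of 1.44 (SE 0.29, adjusted p = 0.0347). Next in order were Hoxa13 with 0.71 (SE 0.19, adjusted p = 0.0542) and Hoxa10 with 0.56 (SE 0.15, adjusted p = 0.0571), which did not pass. On this scale differences of low genes are understated. Neither gene passed with the libraries quantile-normalized (Hoxd13 1.65, adjusted p = 0.112; Hoxb13 0.89, adjusted p = 0.201) or with medians equalized (1.56, adjusted p = 0.104; 1.08, adjusted p = 0.117), though both estimates stayed above 0. Over all genes 570 passed as higher and 66 as lower, against 135 and 102 (2.07% in all) after quantile normalization and 147 and 175 (2.81%) after median scaling.

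The tested members divided by their place in the cluster. The 6 genes of groups 9 to 13 had higher estimates in null G4, with no overlap between groups, which held in that direction for 74.7% of all genes. The 11 genes of groups 3 to 8 had lower estimates, and 8 of these did not overlap, which held in that direction for 6.50% of all genes. Over all genes the median log2 difference was 0.36, so the typical gene read higher in null G4. Under quantile normalization or median scaling, which bring that median to 0.02 and to under 0.01, 5 of the 6 posterior genes had higher and 11 of the 11 others lower estimates. Hoxb9 was the gene that changed sides. Hoxb8 fell under median scaling (log2 difference -0.84, adjusted p = 0.0396) and was the only Hox gene to pass there.

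Hoxa10, which helps set the lumbar and uterine regions, stood at 3.72 and 3.13 RPKM in heterozygous crypts, 5.32 and 5.68 in null G4 crypts, then 4.87 and 5.67 where labelled reactivated. Hoxa9, also used by blood progenitors, stood at 2.21 and 1.67, then 3.13 and 3.19, then 2.75 and 2.95 RPKM. In both genes, as in group 13, the heterozygous libraries were lowest. Of all genes tested, 74.7% were higher without overlap in null G4 and 46.7% in the libraries labelled reactivated. Hoxb9 was almost level, at 9.16 and 9.21, then 9.36 and 9.77, then 11.3 and 7.53 RPKM. Hoxa11, a kidney and limb patterning gene, stood at 0.624 and 0.810, then 0.947 and 0.733, then 0.840 and 0.725 RPKM, with overlapping groups.

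The genes of the middle of the Hoxb cluster had lower estimates in null G4 than in heterozygous crypts. Hoxb8 stood at 2.02 and 2.05 RPKM in heterozygous crypts, 1.24 and 1.11 in null G4 crypts, then 1.86 and 1.01 where labelled reactivated. Hoxb5, a gene of enteric nerve and lung development, stood at 3.45 and 2.82, then 2.15 and 1.83, then 2.64 and 1.71 RPKM. Both heterozygous libraries of these genes were above the other 4. Of all genes tested, 6.5% were lower without overlap in null G4 and 4.42% in the libraries labelled reactivated. Hoxb3 stood at 1.49 and 1.22, then 0.911 and 0.812, then 1.17 and 0.756 RPKM. Hoxb4, known for expanding blood stem cells, stood at 2.21 and 2.27, then 2.06 and 1.60, then 2.31 and 1.08 RPKM. Hoxb6 stood at 9.04 and 9.37, then 7.16 and 6.72, then 10.5 and 4.91 RPKM, so that the 2 libraries labelled reactivated lay on either side of all others. Hoxb7 divided them as widely, at 3.09 and 3.37, then 2.57 and 2.70, then 4.2 and 0.989 RPKM.

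In the Hoxa and Hoxd clusters no tested gene of groups 3 to 8 passed between unsorted groups. Hoxa7 stood at 5.12 and 4.86 RPKM in heterozygous crypts, 4.22 and 4.32 in null G4 crypts, then 4.01 and 4.14 where labelled reactivated. Hoxa6 stood at 3.49 and 2.74, then 2.70 and 3.00, then 3.22 and 3.69 RPKM. Hoxa5, needed for the lung and stomach, stood at 2.70 and 1.51, then 1.99 and 1.96, then 2.06 and 2.26 RPKM. Hoxa7 was higher in both heterozygous libraries than in the other 4, and Hoxa5 and Hoxa6 overlapped. Of all genes tested, 6.5% were lower without overlap in null G4 and 4.42% in the libraries labelled reactivated. Hoxa3, a gene of the thymus and parathyroid, stood at 1.33 and 0.984, then 1.14 and 1.00, then 1.09 and 0.968 RPKM. Hoxd3 stood at 1.21 and 1.18, then 0.944 and 0.838, then 1.57 and 0.665 RPKM, again with the libraries labelled reactivated at both ends. Hoxd8 stood at 0.302 and 0.382, then 0.498 and 0.520, then 0.877 and 0.275 RPKM, and was too low for the test. Both its null G4 libraries were above both heterozygous ones, as in 74.7% of all genes tested.

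The genes next to Hoxd13 were under the filter. Hoxd12 stood at 0.0477 and 0.0904 RPKM in heterozygous crypts, 0.279 and 0.393 in null G4 crypts, then 0.0409 and 0.612 where labelled reactivated. Hoxd11 stood at 0.112 and 0.0746, then 0.301 and 0.389, then 0.132 and 0.488 RPKM. Hoxd10 stood at 0.167 and 0.140, then 0.295 and 0.415, then 0.129 and 0.677 RPKM. In these 3 genes, named after their values were seen and not tested, both null G4 libraries were above both heterozygous ones, as in 74.7% of all genes tested. The first library labelled reactivated was close to the heterozygous values and the second was the highest of all 6.

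**Figure D2:**
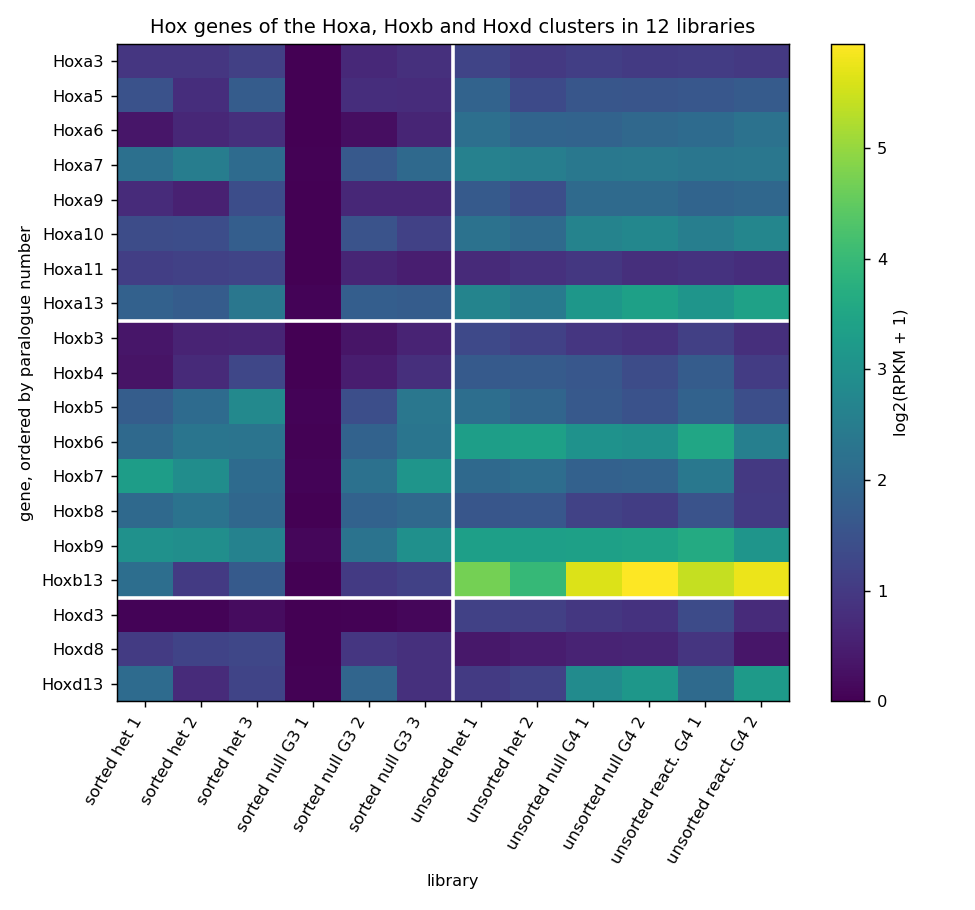
Levels of the 19 Hox genes that reached RPKM 1 in 2 libraries or more (rows, by cluster and then paralogue number) in the 12 libraries (columns), as log2(RPKM + 1). Hoxb13 is brightest in the 6 unsorted libraries, and the column of the library labelled null G3 replicate 1 is dark throughout.

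The libraries labelled reactivated were not distinguished from null G4 in any Hox gene: 0 of 17 passed, with 3 of 11464 genes (0.0262%) passing over all genes and 310 genes under an unadjusted p of 0.05. The genes of smallest p were Hoxa6 (log2 difference 0.21, SE 0.15), Hoxd13 (-0.35, SE 0.32), Hoxb8 (0.14, SE 0.19) and Hoxa9 (-0.11, SE 0.15), with adjusted p from 0.833 to 0.838. This does not show that the groups were alike, since the 2 libraries labelled reactivated differed widely in Hoxd13, Hoxb6 and Hoxb7. Without the first of them, which leaves 1 library in the group, the difference in Hoxd13 turned to 0.24 and that in Hoxb7 to -0.87.

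Against heterozygous crypts, to which both null G4 and the libraries labelled reactivated were compared, the latter gave 0 of 17 Hox genes passing, beside 1.27% of all genes. Hoxd13 differed by 1.57 (SE 0.32, adjusted p = 0.0732), Hoxb13 by 1.24 (SE 0.29, adjusted p = 0.108), Hoxa13 by 0.69 (SE 0.19, adjusted p = 0.171) and Hoxa10 by 0.50 (SE 0.15, adjusted p = 0.232). For these genes the null G4 values were 1.92, 1.44, 0.71 and 0.56, and the 2 sets of values share their controls. All 6 genes of groups 9 to 13 had higher estimates, 5 of them without overlap (46.7% of all genes in that direction), and 9 of the 11 others had lower estimates, 4 of them without overlap (4.42%). Quantile normalization or median scaling turned these counts to 5 of 6 and 11 of 11. A lower pseudocount of 0.1 let Hoxd13 pass (2.12, adjusted p = 0.0412). Leaving out 1 library leaves 1 library in its group, so only effect sizes are given. Hoxd13 was at 2.16 without the first library labelled reactivated and at 0.98 without the second, so these libraries disagreed. Without the first, Hoxb7 was at -1.09. Without heterozygous replicate 1, Hoxb13 was at 1.61. With the replicate number as a block, 2 Hox genes passed in null G4 against heterozygous, 0 in the libraries labelled reactivated against null G4 and 2 (Hoxd13 and Hoxb13) in those against heterozygous, beside 11.5%, 0.0785% and 2.3% of all genes.

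**Figure D3:**
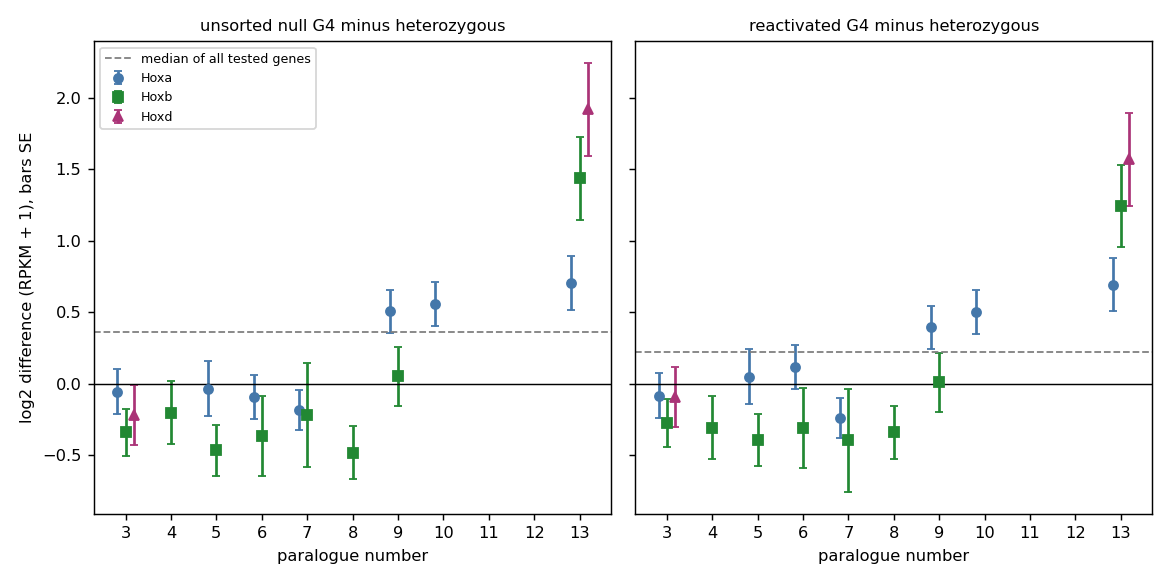
Log2 difference on the log2(RPKM + 1) scale (points) with its SE (bars) for the 17 Hox genes tested, by paralogue number, for null G4 (left) and the libraries labelled reactivated (right) against heterozygous crypts. Genes numbered 3 to 8 lie below the dashed median of all genes, and Hoxb13 and Hoxd13 lie highest.

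Other quantities that differed between the unsorted groups are given beside the group 13 genes. Both heterozygous libraries were male and both null G4 libraries female. Of those labelled reactivated, the first was female (Hoxd13 3.18 RPKM) and the second male (8.44 RPKM, the highest Hoxd13 value). With a term for sex, which can be estimated only from the 2 libraries labelled reactivated, Hoxd13 passed in null G4 against heterozygous (3.09, adjusted p = 0.0110), Hoxb13 did not (1.79, adjusted p = 0.268) and Hoxb7 passed as lower (-1.60, adjusted p = 0.0174), beside 0.602% of all genes. The term takes the difference between the 2 libraries labelled reactivated as the effect of sex. For these libraries against heterozygous, it gave 2.16 for Hoxd13 and -1.09 for Hoxb7. Leaving out the first of them gave the same estimates, so these are not separate alternatives. Fibroblast and muscle markers summed to 2.99 and 4.42 RPKM in heterozygous crypts, 5.95 and 6.90 in null G4 crypts, then 5.89 and 2.98 where labelled reactivated. The library with the lowest of these sums, 2.98, had 53.4 RPKM of Hoxb13 and the highest Hoxd13 value. Members of the list went opposite ways in it. Its Acta2 (0.403 RPKM) and Des (0.0979 RPKM) were the highest of all 12 libraries. Its Vim (1.15), Col1a1 (0.0889) and Col3a1 (0.144) were the lowest of the 6 unsorted libraries. Of the 14 markers only Vim, Pdgfrb and Dcn reached RPKM 1 in any library. Epithelial markers summed to 1630 and 2195, then 2822 and 3477, then 2838 and 3121 RPKM, and the part of either list in the result was not tested. In null G4 against heterozygous 0 of 8 epithelial, 0 of 3 stem cell, 0 of 2 fibroblast and muscle (Vim and Pdgfrb) and 0 of 1 immune markers passed, and no neuronal, glial or endothelial marker reached RPKM 1. Among the fibroblast and muscle markers not tested, Acta2, Myh11, Dcn, Lum, Pdgfra, Col1a1, Col1a2 and Col3a1 were higher in both null G4 libraries than in both heterozygous ones. This held for 74.7% of all genes tested. Des, Foxf1 and Foxf2 overlapped. In tissue of many cells, fewer cells of a type and less RNA per cell cannot be told apart.

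Shares within a library, which a scale factor cannot move, were also computed, and the group 13 genes held a larger share in the 4 other unsorted libraries than in the 2 heterozygous ones. Hoxb13 alone made up 29.9% and 21.3% of the summed RPKM of 30 Hox genes in heterozygous crypts, 43.4% and 48.0% in null G4 crypts, then 38.1% and 46.9% where labelled reactivated. The 3 genes of group 13 together made up 37.5% and 29.4%, then 56.2% and 61.6%, then 47.9% and 62.8%. Genes of groups 4 to 8 made up 37.7% and 42.9%, then 22.7% and 19.2%, then 29.5% and 17.9%. The sums themselves were 84.3 and 69.5 RPKM, then 110.8 and 126.2, then 109.1 and 113.9.

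A position index, the mean paralogue number of the 30 genes weighted by RPKM, put this in 1 value a library. It was 9.09 and 8.64 in heterozygous crypts, 10.4 and 10.8 in null G4 crypts, then 9.87 and 10.9 where labelled reactivated. The difference of null G4 from heterozygous was 1.76 (10.6 ± 0.25 against 8.87 ± 0.32, SD, n = 2 each; two-sided exact permutation p = 0.333, the smallest that 2 against 2 allows). That of the libraries labelled reactivated (10.4 ± 0.73) from null G4 was -0.24 (exact permutation p = 1). With log2(RPKM + 1) as weights, which lower the pull of Hoxb13, the first difference was 0.74, and without the Hoxb cluster 1.42.

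**Figure D4:**
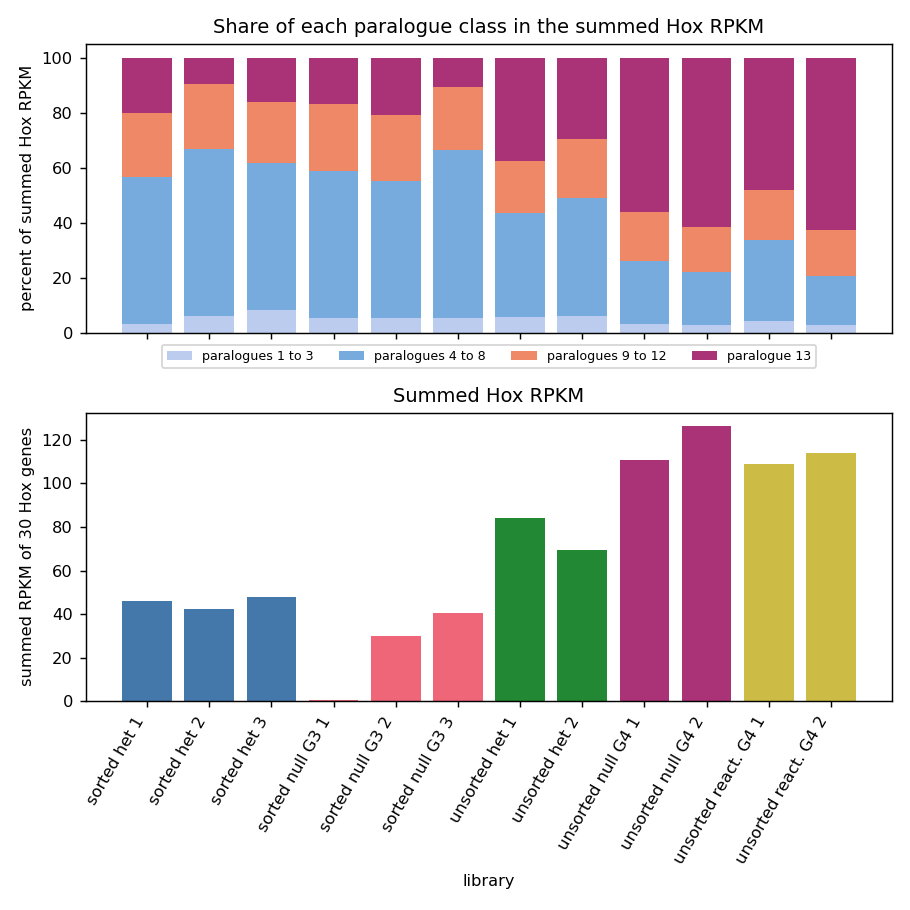
Upper panel: percent of the summed RPKM of 30 Hox genes held by each class of paralogue numbers in each library. Lower panel: the sum itself in RPKM. The share of group 13 is 29.4% or more in the 6 unsorted libraries and 20.9% or less in the 6 sorted ones.

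In sorted cells no Hox gene passed between null G3 and heterozygous libraries. Of 12 tested, 0 passed, as did 0 of 8734 genes over all (143 had an unadjusted p under 0.05), and all 12 had lower estimates in null G3, with a median of -0.81 against -0.46 for all genes (12 of 12 lower after quantile normalization and 11 of 12 after median scaling). The 4 of smallest p were Hoxa11 (-0.78, SE 0.24), Hoxb13 (-0.89, SE 0.40), Hoxa7 (-1.02, SE 0.49) and Hoxd8 (-0.57, SE 0.29), each with an adjusted p of 0.481. Of these Hoxa11, Hoxa7 and Hoxd8 did not overlap between groups, which held in the same direction for 12.6% of all genes. Without the library labelled null G3 replicate 1 the estimates of these 4 were -0.59, -0.53, -0.42 and -0.28 (adjusted p = 0.867 each), 11 of 12 genes were lower and the median was -0.24 against -0.19 for all genes.

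Hoxa11 stood at 1.14, 1.21 and 1.33 RPKM in heterozygous sorted cells and at 0, 0.529 and 0.421 in null G3, so that it was under every heterozygous value in each null G3 library. Hoxa7 stood at 3.57, 4.73 and 3.23 against 0.0303, 2.13 and 3.12 RPKM. Hoxd8 stood at 1.03, 1.28 and 1.42 against 0.00295, 0.925 and 0.762 RPKM. In these 3 genes every null G3 library was under all heterozygous ones, as held in that direction for 12.6% of all genes tested. Hoxb13 stood at 3.44, 1.01 and 2.19 against 0.00814, 1.02 and 1.20 RPKM, where replicates 2 and 3 overlapped the controls.

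Among the other posterior genes Hoxa13 stood at 2.62, 2.32 and 4.16 RPKM in heterozygous sorted cells and 0.0360, 2.42 and 2.29 in null G3. Hoxd13 stood at 3.21, 0.651 and 1.32 against 0.0199, 2.85 and 0.769 RPKM. Hoxb9 stood at 7.05, 6.66 and 5.20 against 0.0710, 3.80 and 6.89 RPKM. Leaving null G3 replicate 1 aside, the groups overlapped in all 3. Hoxa10 stood at 1.60, 1.65 and 2.40 against 0.0142, 1.87 and 1.22 RPKM, and Hoxa9 at 0.649, 0.450 and 1.66 against 0.00498, 0.570 and 0.576 RPKM. These too overlapped apart from replicate 1, and Hoxa9 was too low for the test.

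The highest Hox gene of each sorted library was a Hoxb gene: Hoxb7 in 2 libraries, Hoxb9 in 3 and Hoxb5 in 1. Hoxb7 stood at 8.84, 6.49 and 3.19 RPKM in heterozygous cells against 0.0466, 3.64 and 7.55 in null G3. Hoxb5 stood at 2.40, 3.24 and 5.94 against 0.0332, 1.67 and 4.09 RPKM. Hoxb6 stood at 3.10, 3.98 and 3.91 against 0.0310, 2.64 and 3.97 RPKM. Hoxb8 stood at 3.10, 3.79 and 2.93 against 0.0154, 2.63 and 3.03 RPKM. The groups overlapped in each of these 4 genes.

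The remaining genes with listed levels were low in sorted cells. Hoxa5 stood at 1.81, 0.704 and 2.3 RPKM in heterozygous cells against 0.00741, 0.713 and 0.694 in null G3, and Hoxa3 at 0.922, 0.924 and 1.17 against 0.0133, 0.614 and 0.770 RPKM. Hoxa6 stood at 0.274, 0.571 and 0.732 against 0, 0.165 and 0.544 RPKM. Hoxb4 stood at 0.234, 0.621 and 1.41 against 0.0104, 0.388 and 0.747 RPKM. None of these was tested in sorted cells, since none reached RPKM 1 in 3 libraries. Hoxb3 stood at 0.282, 0.505 and 0.539 against 0.00434, 0.259 and 0.511 RPKM, and Hoxd3 at 0.0396, 0.0468 and 0.149 against 0.000745, 0.0178 and 0.0729 RPKM. Of all these only Hoxa3 was lower in every null G3 library than in every heterozygous one, as held for 12.6% of all genes tested. The index of sorted cells was 8.42, 7.63 and 7.67 in heterozygous and 7.79, 8.43 and 7.59 in null G3, a difference of 0.03 (7.94 ± 0.44 against 7.91 ± 0.44, SD, n = 3 each; exact permutation p = 0.9, where 0.1 is the smallest possible). Without null G3 replicate 1 the difference was 0.10.

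**Figure D5:**
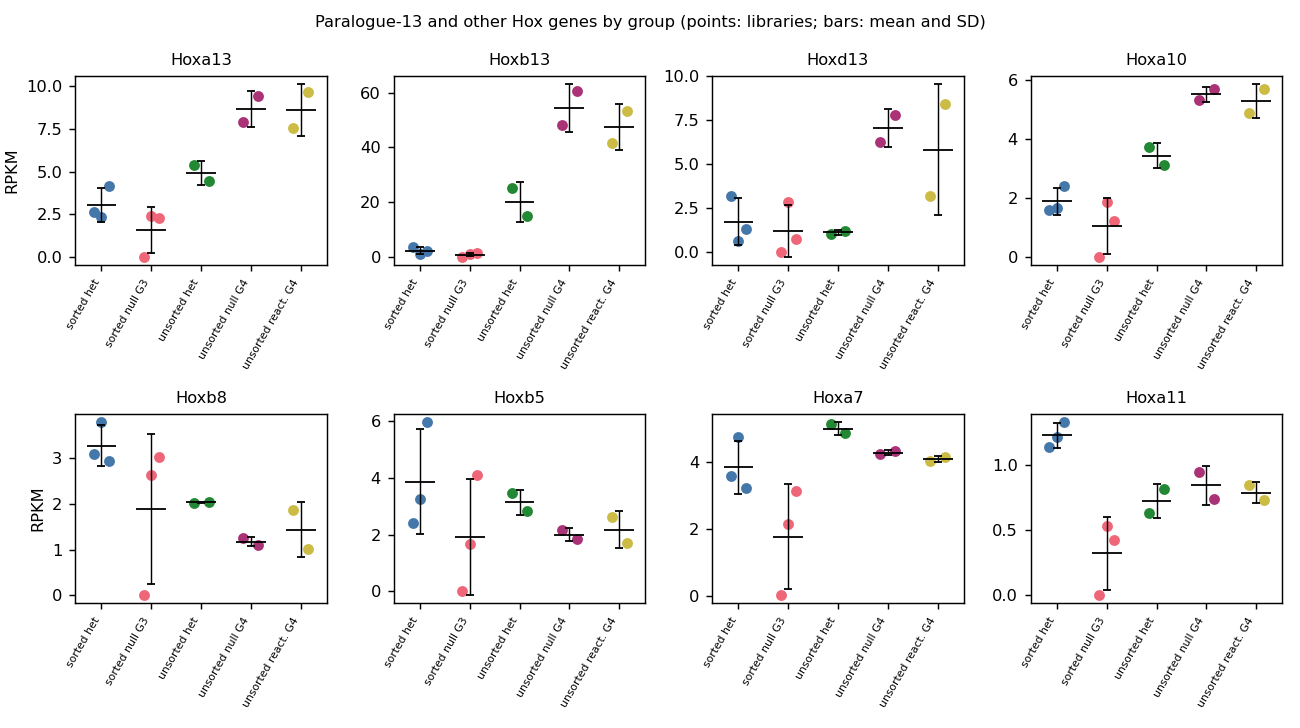
RPKM of 8 Hox genes by group; points are libraries, horizontal bars the mean and vertical bars the SD. Among the 3 unsorted groups the genes of group 13 are lowest in the heterozygous one and Hoxb8, Hoxb5 and Hoxa7 highest in it, and 1 sorted null G3 library lies at or near 0 in each panel.

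Heterozygous sorted and unsorted cells were also compared. Of 19 tested, 1 was higher and 5 lower in sorted cells, while 35.6% of all 11862 genes passed (4.32% higher, 31.3% lower), so the share of Hox genes passing was near that of all genes. Among the genes that passed, Hoxb13 was lower by the most (log2 difference -2.73, SE 0.43, adjusted p = 6.15e-04), followed by Hoxa6 (-1.44, SE 0.22, adjusted p = 5.39e-04) and Hoxd3 (-1.03, SE 0.17, adjusted p = 8.54e-04). Hoxb4 (-0.94, SE 0.31, adjusted p = 0.0353) and Hoxb3 (-0.71, SE 0.19, adjusted p = 0.0124) were also lower, and Hoxd8 was higher (0.74, SE 0.26, adjusted p = 0.0457). In all, 3 genes were higher and 11 lower without overlap (20% and 54.9% of all genes). Over all genes 512 passed as higher and 3712 as lower. Quantile normalization gave 2 Hox genes higher and 3 lower, beside 2686 and 2491 of all genes (43.6%), and median scaling 3 and 2, beside 2839 and 2257 (43%). Hoxb13 and Hoxa6 passed under every alternative run, Hoxd3 under all but median scaling, and the other 3 were lost under several. With a sex term 3 passed, beside 22.8% of all genes, and with a replicate block 6, beside 29.7%. With the library labelled null G3 replicate 1 left out of the fit, 12 of the 19 passed (3 higher, 9 lower) beside 58.4% of all genes.

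The sets appear to have been normalized separately, and the sorted heterozygous libraries were female and the unsorted ones male, so sort, normalization and sex cannot be told apart here. Shares within a library do not depend on the scaling: Hoxb13 made up 2.39% to 7.45% of the Hox total in heterozygous sorted cells, against 21.3% and 29.9% in heterozygous unsorted crypts. The index was lower in sorted cells by 0.96 (7.91 ± 0.44, n = 3, against 8.87 ± 0.32, n = 2, SD; exact permutation p = 0.2, smallest possible 0.1), and without the Hoxb cluster it was higher by 0.25. Of the 5 stem cell markers 1 passed as higher in sorted cells and 0 as lower. Lgr5 lay at 3.40, 4.24 and 4.72 RPKM against 0.928 and 0.813 and did not pass, and Olfm4 passed (1.54, SE 0.46, adjusted p = 0.0235).

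The difference between the null effect in sorted cells and that in unsorted crypts, the test of whether the effects differ, passed for 0 of 19 Hox genes and for 0.303% of all 11862 genes. Its estimates were -2.32 (SE 0.60) for Hoxb13, -0.88 (SE 0.26) for Hoxa11, -2.32 (SE 0.76) for Hoxd13 and -0.96 (SE 0.39) for Hoxa9, with adjusted p from 0.187 to 0.190, against a median of -0.73 for all genes. Hoxb13 and Hoxa11 passed when null G3 replicate 3 was left out (both adjusted p = 0.0466), where all-gene calls rose from 36 to 3533 of 11862. That setting keeps the library labelled null G3 replicate 1, in which Hoxb13 read 0.00814 and Hoxa11 0 RPKM. Without the library labelled null G3 replicate 1, Hoxb13 was at -1.97 (adjusted p = 0.0532) and 1.79% of all genes passed.

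Proteins that bind DNA with Hox proteins did not pass in any comparison. Of the 9 cofactor genes, 3 were tested in sorted cells and 5 elsewhere. In unsorted null G4 against heterozygous their median log2 difference was 0.36, equal at 2 decimals to that of all genes. Pbx2 stood at 4.41 and 4.87, 5.88 and 6.77, and 6.42 and 4.69 RPKM in heterozygous, null G4 and reactivated-labelled crypts in that order. Pknox1 stood at 1.58 and 1.72, 2.28 and 2.50, and 2.59 and 2.0 RPKM.

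Of 22 regulators that act on the clusters (caudal, Polycomb and trithorax genes), 20 were tested in unsorted crypts and none passed in its 3 comparisons, with a median of 0.18 in null G4 against heterozygous. The caudal factors were even there: Cdx1 stood at 65.9 and 58.1, 64.9 and 70.1, and 68.2 and 54.9 RPKM, and Cdx2 at 42.5 and 54.2, 50.2 and 55.4, and 61.3 and 40.6 RPKM. Suz12, of the Polycomb complex that silences Hox genes, stood at 5.18 and 5.83, 10.2 and 11.0, and 10.1 and 6.44 RPKM (null G4 against heterozygous 0.83, SE 0.21, adjusted p = 0.0516). In sorted cells 19 were tested and none passed. Between heterozygous sorted and unsorted cells 6 of 20 fell and 0 rose, beside 31.3% and 4.32% of all genes: Cdx2 (-1.93, adjusted p = 0.0067), Kmt2b (-1.26), Phc2 (-0.96), Ezh1 (-0.70), Cbx8 (-0.69) and Dot1l (-0.67).

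Genes beside or inside the clusters formed another list. Of 25 listed, 11 were in the table and 5 were tested in unsorted crypts, where 2 rose and 0 fell in null G4 against heterozygous, beside 4.97% and 0.576% of all genes. Skap2, an adaptor gene beside the Hoxa cluster, stood at 9.91 and 11.3 RPKM in heterozygous crypts, 19.8 and 24.0 in null G4 crypts, then 18.6 and 17.4 where labelled reactivated (0.98, SE 0.19, adjusted p = 0.0322). Lnp, beside the Hoxd cluster on the side of Hoxd13 and known for shaping the endoplasmic reticulum, stood at 0.980 and 1.09, 2.14 and 2.13, and 1.74 and 1.45 RPKM (0.63, SE 0.14, adjusted p = 0.0465). Neither passed in the other comparisons of unsorted groups.

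Among the non-coding RNAs of the clusters, Mir196a-1 and Hoxa11os differed between heterozygous sorted and unsorted cells, where 31.3% of all genes passed as lower. The hairpin gene of miR-196a-5p, Mir196a-1, stood at 23.6 and 25.3 RPKM in heterozygous crypts, 19.0 and 20.8 in null G4 crypts, then 24.6 and 18.8 where labelled reactivated, but at 1.10, 0.325 and 0.0518 in heterozygous sorted cells and at 0, 0 and 0.547 in null G3. It fell in heterozygous sorted against unsorted cells by 4.15 on the log2 scale (SE 0.32, adjusted p = 9.77e-06). The libraries were made for long RNA, so this value describes reads over the hairpin and not the mature microRNA. Hoxa11os, antisense to Hoxa11, stood at 4.51 and 3.24, 3.05 and 3.66, and 2.95 and 4.22 RPKM in the unsorted groups and at 0.466, 0.423 and 0.772 in heterozygous sorted cells (-1.64, SE 0.22, adjusted p = 2.33e-04). Whether counting used strand is not given, so reads of Hoxa11 and Hoxa11os cannot be told apart.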

How the data were processed

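The deposited table gives RPKM, made by the authors from 12 mouse RNA libraries (1 table, 28793 genes). STAR 2.3.0e and the build mm10 appear in the submitters' processing notes. The counting tool, annotation and strand setting were not given in the sources used here. Per the labels' protocols, libraries were made with the TruSeq RNA kit.

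From the deposited RPKM, log2(RPKM + 1) was tested with limma 3.58.1 (eBayes, trend allowed, two-sided tests) in R 4.3.3. Genes needed RPKM 1 or more in 3 libraries for the sorted set and in 2 otherwise, the size of the smallest group. Benjamini-Hochberg adjustment ran over all genes tested, with a threshold of 0.05. Sorted and unsorted sets were fitted apart, and all 12 libraries together for comparisons across them. Gene positions came from GENCODE release M21 (97.9% of identifiers matched), promoters and microRNAs from RefSeq. The fits were also run on simulated data with independent noise and no shift of whole libraries, so that run does not bear on the scaling. The lists used were Hox cofactors, cluster regulators, cluster neighbours, small intestinal and colonic genes and cell type markers. Levels in each library were given for Hox genes at RPKM 1 or more in 2 libraries, and fold changes for those that passed or, where fewer than 4 passed, up to 4 of smallest p. Of each other list, genes that passed were given with values or, where none passed, the 3 of highest mean, and some items of the lists are not reported here. Members and lists were chosen with earlier results of these data known. Alternatives were another pseudocount, filter and scaling, a replicate block, a sex term and leaving out each library. Replicate numbers were not taken to pair libraries (correlations of same-numbered deviations -0.19 to 0.219).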

Additional observations from a re-analysis of the deposited data

How the results depend on the processing

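With 2 or 3 libraries a group and no counts, differences among low genes are imprecise. In null G4 against heterozygous, 2 Hox genes passed as reported, against 0 with no filter and 0 with the filter at RPKM 0.1. Quantile normalization gave 0 and median scaling 1, beside 2.07% and 2.81% of all genes. For the filter, the pseudocount and most settings that leave out a library, the share of all genes passing is not given. There a change in Hox calls was not set against the change in all calls, and is not read as particular to Hox genes. Leaving out 1 library here leaves 1 library in its group. Hoxb13 was then at 1.07 without heterozygous replicate 2 and at 1.27 without null G4 replicate 2. For the libraries labelled reactivated against heterozygous, 0 became 1 with a pseudocount of 0.1. The sex term and leaving out the first of these libraries gave the same estimates there (Hoxd13 2.16, Hoxb7 -1.09). Against null G4, Hoxb7 was at -0.87 without the first of these libraries. For heterozygous sorted against unsorted, 6 became 3 with a pseudocount of 0.1, 3 with a sex term, 12 with null G3 replicate 1 left out of the fit and 3 to 6 on leaving out 1 heterozygous library. The difference of null effects gave 0 to 2, and sorted null G3 against heterozygous gave 0 under all alternatives. The index difference of sorted groups, 0.03, turned to -0.086 without the Hoxd cluster and ran from -0.22 without null G3 replicate 2 to 0.28 on leaving out 1 library. For null G4 against heterozygous it moved to 0.74 with log2 weights and 1.42 without the Hoxb cluster, for the libraries labelled reactivated against null G4 to between -0.75 and 0.27 on leaving out 1 library, and for heterozygous sorted against unsorted to -0.028 with log2 weights and 0.25 without the Hoxb cluster. The values of named Hox genes, 334 in all over 26 results, kept direction and side of the threshold in 286, lost the call in 35, gained it in 9 and reversed in 4: in the libraries labelled reactivated against null G4, Hoxa9 at 0.0076 with quantile normalization and 0.037 with median scaling, and Hoxd13 at 0.24 and Hoxb8 at -0.11 without the first of these libraries (on leaving out 1 library they ran from -0.94 to 0.24 and from -0.11 to 0.40). The sex term, null G3 replicate 1 left out of the fit and the crossed block were chosen after seeing the data, and genes outside the Hox list are given without alternatives. The cause of these changes was not tested.

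Samples of the same replicate number are not stated to be paired, and their deviations did not correlate over 0.1 in every pair of sorted libraries (0.0533, -0.0299 and -0.19), while null G4 and heterozygous crypts gave 0.219 and the other unsorted pairs -0.0691 and -0.124. With a replicate block 2 Hox genes passed in null G4 against heterozygous (Hoxd13 adjusted p = 2.22e-05, Hoxb13 adjusted p = 0.00751), 2 in the libraries labelled reactivated against heterozygous (Hoxd13 1.57, adjusted p = 3.43e-04; Hoxb13 1.24, adjusted p = 0.0382), 0 in those against null G4, 6 in heterozygous sorted against unsorted (29.7% of all genes), and 0 in the other comparisons. All-gene calls went from 636 to 1317, 146 to 264 and 3 to 9 in the unsorted comparisons. Crossing the numbers for the libraries labelled reactivated and null G4 gave 0 Hox genes and 1 gene in all.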

Other observations

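Of 13 colonic genes 3 rose and 1 fell in null G4 against heterozygous crypts, where 4.97% of all genes rose and 0.576% fell. Atp12a, the proton-potassium pump of the distal colon, stood at 4.83 and 2.67 RPKM in heterozygous crypts, 33.8 and 36.7 in null G4 crypts, then 19.5 and 48.5 where labelled reactivated (2.97, SE 0.39, adjusted p = 0.00621, limma). Saa1, an acute-phase gene, also rose (2.31, SE 0.44, adjusted p = 0.0304), as did the water channel gene Aqp4 (1.2, SE 0.24, adjusted p = 0.0329). Mptx1, a pentraxin gene, stood at 1145 and 954 RPKM, then 110 and 126, then 265 and 183, and fell in null G4 (-3.13, SE 0.28, adjusted p = 0.00104). Of 13 small intestinal genes 11 were tested, and beside the same shares of all genes 2 fell and 0 rose: Fabp1, a fatty acid carrier gene (-2.57, SE 0.49, adjusted p = 0.0304), and Rbp2, a retinol carrier gene (-1.85, SE 0.41, adjusted p = 0.0442). Their highest unsorted values, 19.3 and 18.7 RPKM, were both in heterozygous replicate 2.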
